A study of Mus musculus with 12 samples.

Results

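A set of 8 genes stood out in newborn mouse brain for a probe that read far higher on the 129 than on the B6 background, namely Tmem87a, Timmdc1, Masp2, Ocel1, Cuedc1, Paip1, Trappc12 and Adat2. They were chosen by their measured values, as genes with 1 probe among those of largest excess in 129 over B6 brains, in WT mice, in nm1054 mice or in both. They make up 8 of the 20289 genes with a symbol on the array and hold 12 of its 45281 probes, or 16 probes once older names of the same genes are included. The high reading of the chosen probe is therefore a description of the choice and not a finding. The other probes of the same genes belong to the same comparison and are described without a test. The effect of genotype is another contrast and was tested. It rests on the same group values as the choice, so its tests are not independent of that choice.

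The members work in separate cell processes. Tmem87a encodes a membrane protein of the Golgi, Trappc12 a subunit of the TRAPP complex that tethers transport vesicles, and Timmdc1 a factor of the mitochondrial inner membrane that helps to assemble respiratory complex I. Paip1 binds the poly(A)-binding protein and promotes the start of translation, and Adat2 is the catalytic subunit of the enzyme that turns adenosine into inosine in the anticodon of transfer RNAs. Masp2 is a serine protease of the lectin pathway of complement, best known as a product of the liver, and the gene also gives a short non-catalytic product, MAp19. Cuedc1 carries a ubiquitin-binding CUE domain, and Ocel1 carries a domain shared with occludin and the ELL elongation factors.

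Whole brains were taken at postnatal day 1 (P1) and hybridised singly to Illumina MouseWG-6 arrays, 12 arrays in 4 groups of 3. The groups were nm1054 129 and WT 129, on the 129S6/SvEvTac background, and nm1054 B6 and WT B6, on C57BL6/J. The nm1054 mice were homozygous for a spontaneous deletion on chromosome 1 that takes out several genes, Cfap221 of motile cilia among them, and they develop hydrocephalus that is worse on B6. By the study's account none of the mice had gross hydrocephalus yet at P1. Each group mixed males and females, and the labels do not give the sex of each brain. By the study's methods a Steap3 transgene is present in nm1054 B6 mice and in no other group, and it enters each contrast that uses them. Each value is a log2 intensity relative to the median of that probe over the 12 arrays, so it ranks brains at a probe and says nothing of how bright the probe is. Where 6 values lie above the rest, the lowest of them and the highest of the others are equal and opposite for this reason.

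The genotype labels held at Dbi, a gene inside the deletion, whose probe ILMN_3150159 read between -3.85 and -3.71 in nm1054 129 brains and between 3.71 and 3.77 in WT 129 brains, and between -4.24 and -4.15 in nm1054 B6 brains and between 3.71 and 3.87 in WT B6 brains. Array medians ran between -0.17 in WT B6 replicate 1 and 0.11 in WT 129 replicate 1, and the median difference of 129 minus B6 over all probes was 0.12 in nm1054 and 0.15 in WT brains, or 0.02 in each once arrays were centred. The values give no level, so the brain label could not be checked by the level of neuronal markers. Mean values of the marker lists overlapped between WT 129 and WT B6 arrays for all 5 lists. Between nm1054 arrays they did not overlap for neurons (-0.09 to -0.0086 on 129, 0.087 to 0.10 on B6), choroid plexus (-0.31 to -0.06 on 129, 0.03 to 0.11 on B6) or meninges (-0.03 to 0.08 on 129, -0.23 to -0.08 on B6), and their part in the results was not tested. The neuronal list did not move as a whole, since the median of 129 minus B6 over its 19 probes was 0.12 in nm1054 brains. Its lowest differences there were at Map2, with -3.50 at ILMN_1240895 and -1.01 at ILMN_1226082. Differences in nm1054 brains also varied within the other lists. Meninges had a median of 0.14 over 11 probes, from -1.03 at Col1a1 (ILMN_1246775) to 0.89 at Lum (ILMN_3001540). Choroid plexus had a median of -0.20 over 7 probes, from -0.88 at Otx2 to 0.29 at Kl (ILMN_2930843). Which markers are near 0 cannot be read from values relative to a median, and in whole brain a smaller share of a cell type cannot be told apart from less RNA per cell.

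Among the members the excess in 129 brains was largest for Tmem87a. Its lead probe, ILMN_2969172, read 1.27, 1.41 and 1.42 in the nm1054 129 brains and 1.28, 1.22 and 1.18 in the WT 129 brains, against -1.51, -1.43 and -1.18 in the nm1054 B6 brains and -2.18, -1.26 and -1.56 in the WT B6 brains. The 6 brains on 129 lay close together and far above the 6 on B6, and the lowest reading came from WT B6 replicate 1. The difference of 129 minus B6 was 2.74 log2 units (SE 0.17) in nm1054 and 2.89 (SE 0.17, 7.43-fold) in WT brains.

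Timmdc1 followed with the same shape. Its lead probe, ILMN_2838965, read 1.36, 1.17 and 1.08 in nm1054 129 and 1.21, 1.25 and 1.37 in WT 129 brains, against -1.30, -1.47 and -1.10 in nm1054 B6 and -2.11, -1.46 and -1.08 in WT B6 brains. Strains were again fully apart, and WT B6 replicate 1 was again the lowest. The difference was 2.49 log2 units in nm1054 and 2.83 in WT brains (SE 0.18 each).

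The Masp2 lead probe, ILMN_1216142, read 1.09, 1.18 and 1.13 in nm1054 129 and 1.36, 1.38 and 1.26 in WT 129 brains, against -1.52, -1.43 and -1.12 in nm1054 B6 and -1.42, -1.09 and -1.25 in WT B6 brains. The lowest array here was nm1054 B6 replicate 1, and the strains were fully apart. The difference was 2.49 log2 units in nm1054 and 2.58 in WT brains (SE 0.12 each). Ocel1, with a single probe (ILMN_2667463), read 1.11, 1.08 and 0.996 in nm1054 129 and 1.13, 1.05 and 1.21 in WT 129 brains, against -1.43, -1.33 and -0.996 in nm1054 B6 and -1.39, -1.37 and -1.39 in WT B6 brains. The WT B6 brains agreed within a narrow band, and the strains did not overlap. The difference was 2.31 log2 units in nm1054 and 2.52 in WT brains (SE 0.12 each).

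Cuedc1, also with a single probe (ILMN_1229454), read 1.10, 1.02 and 0.96 in nm1054 129 and 1.42, 1.37 and 1.06 in WT 129 brains, against -1.19, -1.26 and -1.08 in nm1054 B6 and -1.42, -0.96 and -0.996 in WT B6 brains. All 6 brains on 129 were above all 6 on B6, by 2.21 log2 units on average in nm1054 and 2.41 in WT brains (SE 0.13 each). The only probe of Adat2, ILMN_2705097, read 1.005, 0.96 and 0.96 in nm1054 129 and 1.04, 1.05 and 1.02 in WT 129 brains, against -1.41, -1.32 and -1.19 in nm1054 B6 and -1.35, -0.96 and -1.05 in WT B6 brains. Among the lead probes Adat2 had the tightest readings on 129, with a standard deviation of 0.027 in nm1054 129 and 0.014 in WT 129 brains (n = 3 each). Its difference was 2.28 log2 units in nm1054 and 2.15 in WT brains (SE 0.12 each), so that Adat2 and Trappc12 were the members whose lead probe had the larger value in nm1054 brains.

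Trappc12 had 1.20, 1.25 and 0.88 at its lead probe, ILMN_2502614, in nm1054 129 and 1.09, 1.16 and 1.20 in WT 129 brains, against -1.30, -1.28 and -1.20 in nm1054 B6 and -1.71, -0.88 and -0.90 in WT B6 brains. The WT B6 brains spread most, with replicate 1 lowest, and still lay below every 129 brain. The difference was 2.37 log2 units in nm1054 and 2.31 in WT brains (SE 0.17 each). Paip1 had 1.03, 0.85 and 1.36 at its lead probe, ILMN_2752569, in nm1054 129 and 0.90, 0.78 and 0.89 in WT 129 brains, against -0.88, -0.78 and -1.03 in nm1054 B6 and -1.99, -1.28 and -1.36 in WT B6 brains. It is the lead probe at which the genotypes on B6 separated, with every nm1054 B6 brain above every WT B6 brain. The strain difference was 1.98 log2 units in nm1054 and 2.40 in WT brains (SE 0.16 each).

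**Figure D1:**
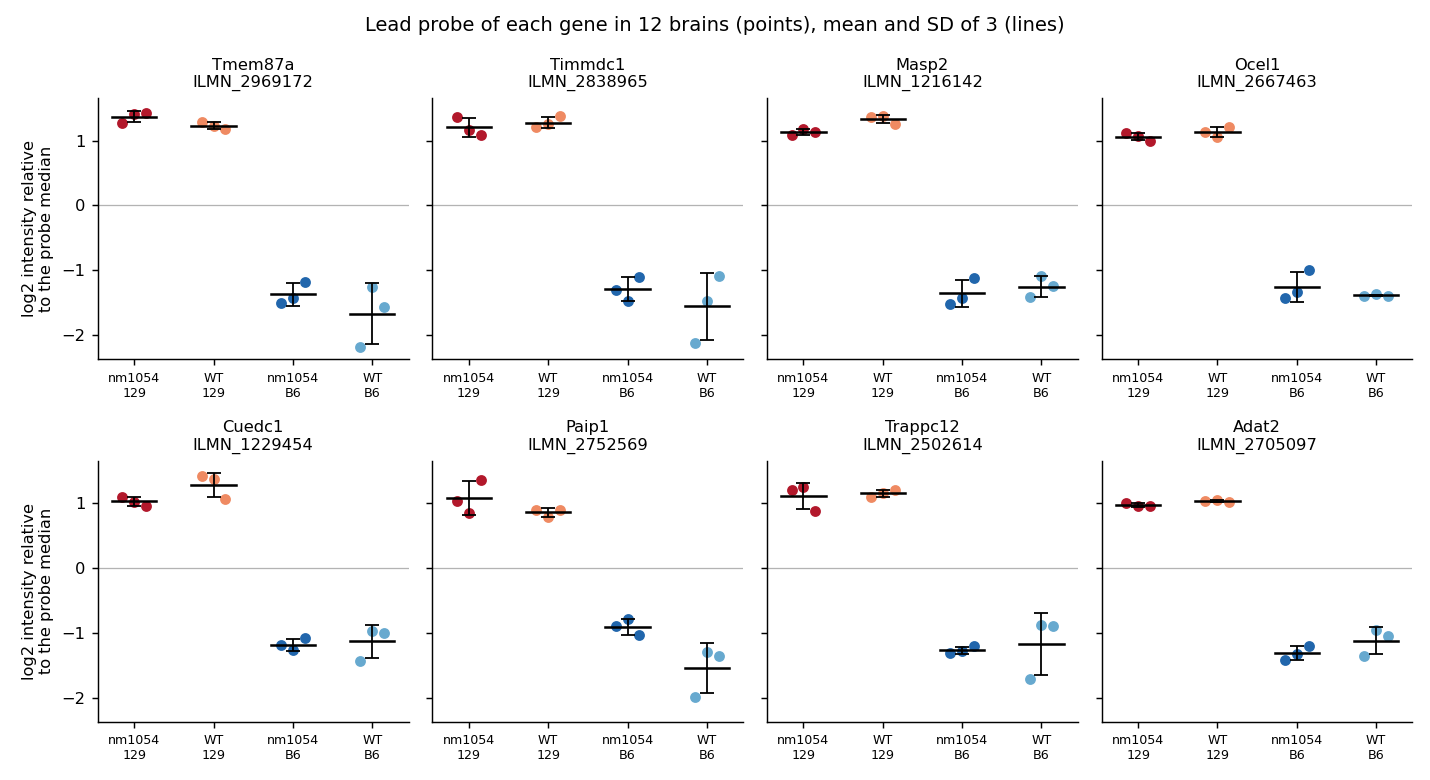
Value of the lead probe of each of the 8 genes in each of the 12 brains, in log2 units relative to the median of the probe, with the group mean and standard deviation as lines (n = 3 each). In every panel the 6 brains on 129 sit above 0 and the 6 on B6 below it, and the Tmem87a and Timmdc1 values of WT B6 replicate 1, at -2.18 and -2.11, are the lowest on the plot.

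Among genes ranked by their highest probe, Paip1 (2.40) and H2-Bl (2.32) were the last inside the 10 of largest excess in WT brains. Trappc12 (2.31), Cap1 (2.29), Ttl (2.26) and Xist (2.21) were just outside. The part of sex in these differences was not tested. In nm1054 brains Trappc12 (2.37) and Ocel1 (2.31) were the last inside, while Adat2 (2.28), Ttl (2.27), Cuedc1 (2.21) and Cap1 (2.13) were just outside. The 10 also held genes that are not members. Both comparisons had Sstr1 (3.30 in nm1054 and 3.47 in WT brains), Hbb-b2 (3.19 and 3.26), Sfrp1 (2.99 and 2.70) and H2-Bl (2.43 and 2.32). Gh (3.11) was inside in nm1054 brains. Adat2, at 2.15 in WT brains, was inside the 10 of neither comparison. The lead probes took places 9 to 26 of all 45281 probes in nm1054 and places 7 to 27 in WT brains.

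A difference is called here where limma's Benjamini-Hochberg adjusted p over all probes is under 0.05 and the fold change is over 1.5. By this rule 10 of the 12 probes were called higher in 129 in nm1054 brains and 10 of 12 in WT brains, and none was called lower. Over all probes 1.39% were called higher and 1.88% lower in nm1054 brains, and 1.67% higher and 1.66% lower in WT brains, and nothing is read from the members' count because the same contrasts chose them. The 10 called probes were the 8 lead probes and 2 further probes of Masp2.

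Ocel1, Cuedc1 and Adat2 had a single probe each, and second probes of Paip1 and Timmdc1 were higher on 129 without being called. By this rule Masp2 was thus the member called at several probes. ILMN_1260242 read 0.74, 0.84 and 0.63 in nm1054 129 and 0.65, 0.91 and 0.95 in WT 129 brains, against -0.91, -0.98 and -0.63 in nm1054 B6 and -1.09, -0.94 and -0.67 in WT B6 brains. ILMN_3101073 read 0.64, 0.54 and 0.62 in nm1054 129 and 0.74, 0.73 and 0.71 in WT 129 brains, against -0.88, -1.33 and -0.54 in nm1054 B6 and -0.85, -1.01 and -0.88 in WT B6 brains. Both probes held the strains apart, at a smaller distance than the lead probe. The differences were 1.58 in nm1054 and 1.73 in WT brains at ILMN_1260242 (SE 0.13 each), and 1.51 in nm1054 and 1.64 in WT brains at ILMN_3101073 (SE 0.15 each).

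The remaining Masp2 probe, ILMN_3027989, read 0.050, 0.0095 and 0.024 in nm1054 129 and 0.20, 0.30 and -0.093 in WT 129 brains, against -0.0095, 0.14 and -0.24 in nm1054 B6 and -0.47, -0.17 and -0.097 in WT B6 brains. The strains overlapped in nm1054 brains and were barely apart in WT brains. Its difference of 0.06 in nm1054 and 0.38 in WT brains (SE 0.14 each) was not called. The array annotation ties this probe and the 2 intermediate probes to the same Masp2 transcript, and the lead probe to another one. Probes with one annotated transcript thus spanned 0.06 to 1.58 log2 units in nm1054 and 0.38 to 1.73 in WT brains.

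**Figure D2:**
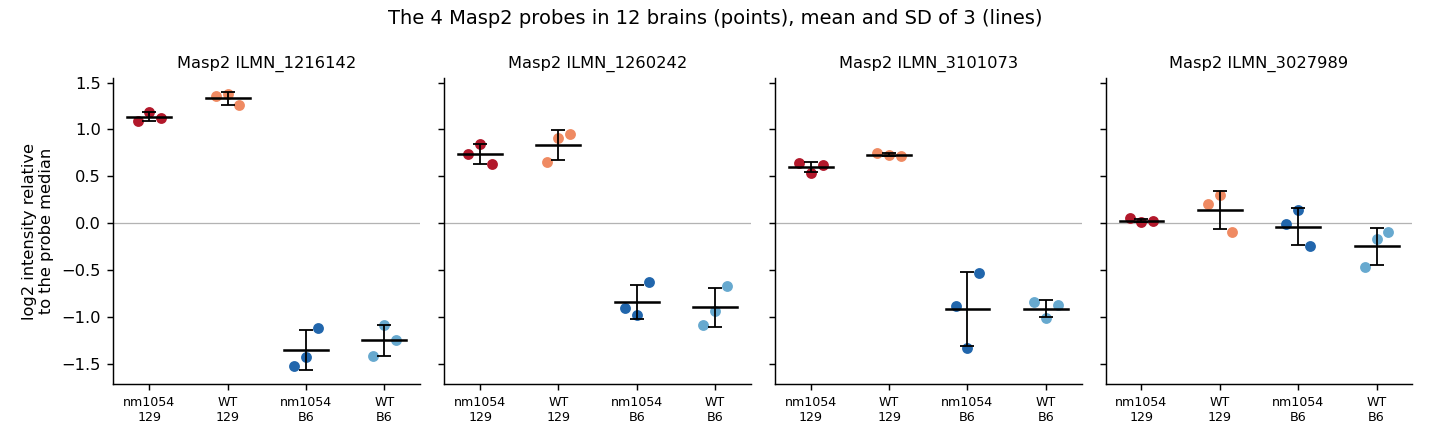
The 4 Masp2 probes in the 12 brains, in log2 units relative to the median of each probe, with the group mean and standard deviation as lines (n = 3 each). Strains are apart at ILMN_1216142, ILMN_1260242 and ILMN_3101073, whereas at ILMN_3027989 the nm1054 129 and nm1054 B6 brains overlap.

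Paip1 had a second probe that moved less. ILMN_3065748 read 0.37, 0.011 and 0.057 in nm1054 129 and 0.44, 0.16 and 0.056 in WT 129 brains, against -0.34, -0.32 and -0.011 in nm1054 B6 and -0.57, -0.33 and -0.14 in WT B6 brains. No 129 brain fell below a B6 brain, though the closest pair lay only 0.022 apart. The difference was 0.37 in nm1054 and 0.56 in WT brains (SE 0.14 each), not called, while the lead probe, annotated to the same transcript, gave 1.98 in nm1054 and 2.40 in WT brains.

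Timmdc1, Tmem87a and Trappc12 had further probes under older names, outside the 12. The Timmdc1 probe ILMN_2627318, listed as 4930455C21Rik, read 0.14, 0.24 and 0.11 in nm1054 129 and 0.099, 0.035 and 0.091 in WT 129 brains, against -0.51, -0.54 and -0.29 in nm1054 B6 and -1.40, -0.30 and -0.035 in WT B6 brains. The 129 brains were above the B6 brains by a thin margin. Its difference was 0.61 in nm1054 and 0.65 in WT brains (SE 0.22 each), was not called, and came to 0.25 in WT brains without WT B6 replicate 1. The Tmem87a probe ILMN_1223159, listed as A930025J12Rik, ranged between -0.04 and 0.035 in nm1054 129 and between -0.079 and -0.0050 in WT 129 brains, against -0.0031 to 0.31 in nm1054 B6 and -0.23 to 0.14 in WT B6 brains. Strains overlapped, with a difference of -0.11 in nm1054 and -0.0092 in WT brains (SE 0.12 each), although this probe and the Tmem87a lead probe share an annotated transcript.

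Trappc12 had a further probe that read lower on 129, by a margin that was not called. ILMN_2445049, listed as Ttc15 and annotated to the transcript of the lead probe, read -0.042, -0.17 and -0.42 in nm1054 129 and -0.11, -0.13 and 0.042 in WT 129 brains, against 0.37, 0.26 and -0.093 in nm1054 B6 and 0.24, 0.27 and 0.25 in WT B6 brains. Every WT 129 brain was below every WT B6 brain, and the nm1054 brains overlapped. Its difference was -0.39 in nm1054 and -0.32 in WT brains (SE 0.13 each). At ILMN_1237446, listed as D930014A20Rik, the strains overlapped, with 0.04 in nm1054 and 0.23 in WT brains (SE 0.13 each).

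Averaging all probes of a gene shrank the difference. In nm1054 brains the mean over probes was 1.31 for Tmem87a, 1.55 for Timmdc1, 1.41 for Masp2, 1.17 for Paip1 and 0.67 for Trappc12. In WT brains it was 1.44 for Tmem87a, 1.74 for Timmdc1, 1.58 for Masp2, 1.48 for Paip1 and 0.74 for Trappc12. Across the array, 10 genes with several probes had a probe over 2 log2 units higher in 129 in nm1054 brains, and 3 of them (30%) had another probe called higher. In WT brains there were 13 such genes, of which 3 (23.1%) had another probe called higher. Masp2 was the member among those 3 in both genotypes, out of 4 members with several probes in nm1054 and 5 in WT brains.

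**Figure D3:**
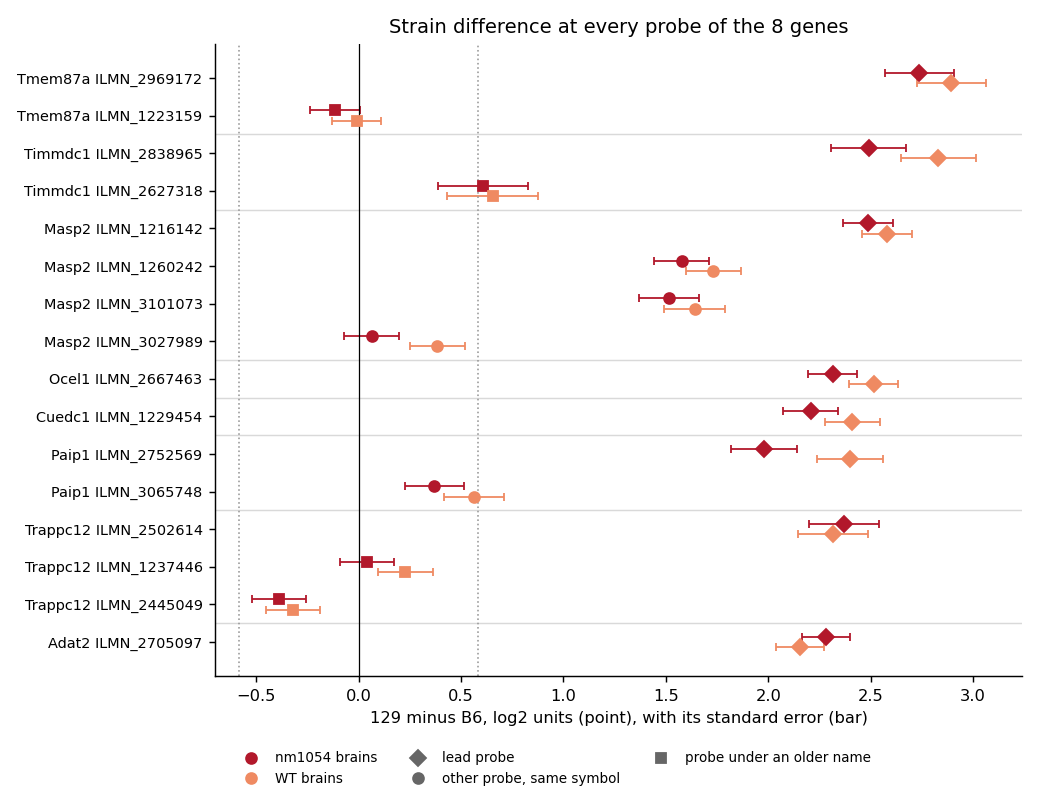
Difference of 129 minus B6 in log2 units for all 16 probes of the 8 genes, with the nm1054 and WT comparisons side by side and bars for the standard error. Dotted lines mark a fold change of 1.5. The lead probes lie between 1.98 and 2.89, and the Trappc12 probe ILMN_2445049 lies below 0.

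The genotype comparisons used a contrast that the choice of genes did not use, but the same arrays and group values. A choice by high 129 minus B6 in WT brains favours high WT 129 and low WT B6 readings. The genotype values and p-values of the lead probes are therefore not independent of the choice. On B6, 0 of the 12 probes were called between nm1054 and WT brains, beside 0.0177% of all probes, and on 129, 0 of 12 were called, beside 0.0199%. At an unadjusted limma p under 0.05 there was 1 of 12 on B6, beside 6.12% of all probes, and 0 of 12 on 129, beside 2.65%. With the probes under older names the counts were 0 of 16 called on each background. Differences of nm1054 minus WT ran between -0.19 for Adat2 and 0.64 for Paip1 on B6, and between -0.25 for Cuedc1 and 0.22 for Paip1 on 129.

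Paip1 had the largest genotype difference on B6 among the members. Its lead probe averaged 0.64 log2 units higher in nm1054 B6 than in WT B6 brains (SE 0.16, 95% interval 0.30 to 0.98), with an unadjusted p of 8.77e-04 and a limma adjusted p of 0.432. All 3 nm1054 B6 brains were above all 3 WT B6 brains, which held at 1 of the 12 probes, and 9.22% of all probes separated these groups in one direction or the other. The value was 0.42 without WT B6 replicate 1, and the adjusted p ran between 0.211 and 1 over the alternatives. Neuronal markers, on average 0.087 to 0.10 in nm1054 B6 and -0.06 to 0.01 in WT B6 brains, were also apart there, and their part in the Paip1 value was not tested. The second Paip1 probe gave 0.12 (95% interval -0.18 to 0.42). Paip1 was inside the 10 of largest excess in WT brains only, a choice that favours low WT B6 readings. The part of that choice in the Paip1 genotype values was not tested.

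The widest genotype difference on 129 belonged to Cuedc1, at -0.25 (95% interval -0.54 to 0.03, limma adjusted p = 1). At 2 Masp2 probes and at Adat2 the nm1054 129 brains lay just below the WT 129 brains without overlap, by 0.20 at ILMN_1216142 and 0.13 at ILMN_3101073 and by 0.06 at Adat2 on average, none of it called (adjusted p = 1 each). These were 3 of the 12 probes, beside 11.1% of all probes without overlap between these groups in either direction. Choroid plexus markers were also apart there, at -0.31 to -0.06 in nm1054 129 and -0.04 to 0.05 in WT 129 brains, and their part was not tested. The Timmdc1 probe ILMN_2627318 had its nm1054 129 brains just above its WT 129 brains, by 0.09 on average (adjusted p = 1). The 95% intervals of the lead probes on 129 differed by probe, among them -0.31 to 0.18 for Adat2, -0.21 to 0.49 for Tmem87a and -0.12 to 0.56 for Paip1.

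The strain difference itself was set against genotype by the interaction term. This term is the nm1054 strain difference minus the WT one, and those differences chose the members. Its p-values are therefore not independent of the choice. No member probe was called, beside 0.00221% of all probes, and 0 of 12 had an unadjusted p under 0.05, beside 4.09%. Paip1 came closest, with an interaction of -0.42 log2 units, its strain difference being smaller in nm1054 than in WT brains (95% interval -0.90 to 0.06). Its unadjusted limma p was 0.0844 and its adjusted p was 1. Without WT B6 replicate 1 this value was -0.20. Timmdc1 followed in size among the lead probes, at -0.34 (95% interval -0.88 to 0.20), and Tmem87a stood at -0.16 (95% interval -0.65 to 0.34).

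**Figure D4:**
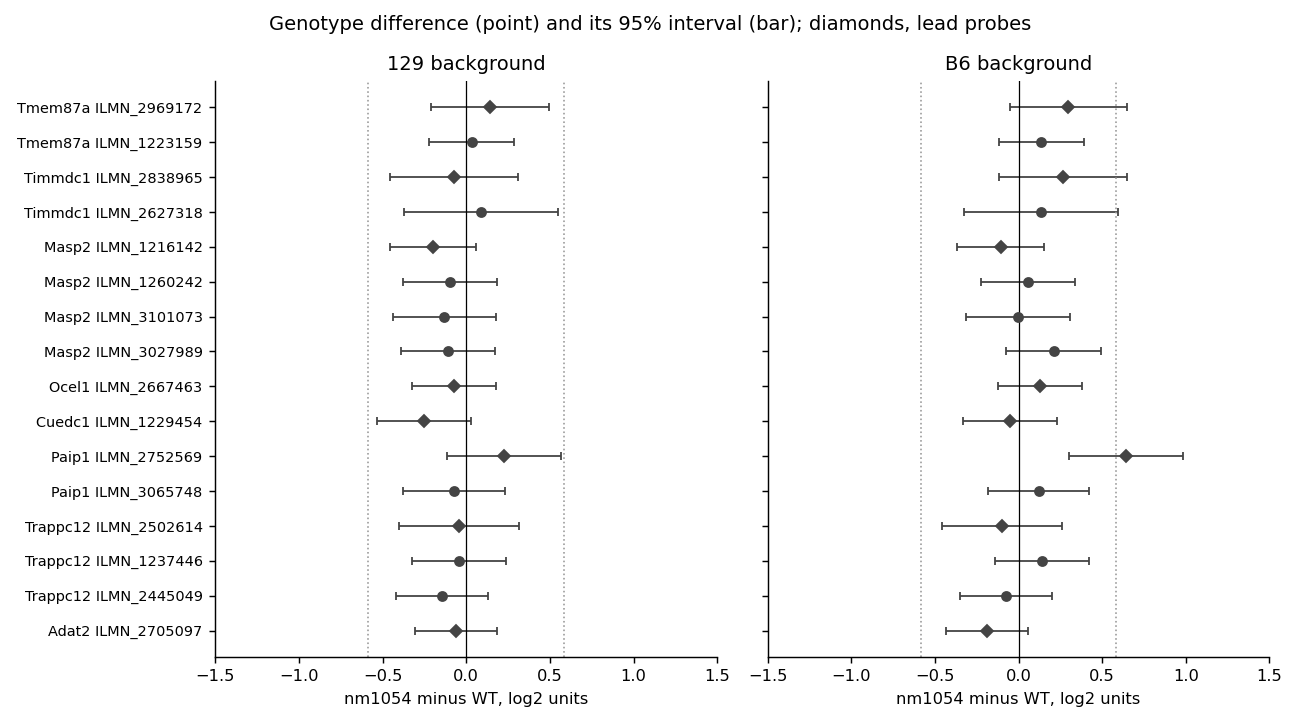
Difference of nm1054 minus WT in log2 units for the 16 probes on 129 and on B6, with 95% confidence intervals as bars and dotted lines at a fold change of 1.5. The intervals cross 0 at every probe other than the Paip1 lead probe on B6, which stands at 0.64.

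The partners of these genes in the cell were listed as 8 groups, with 109 of 118 genes measured by 222 probes. Of these probes, 3 (1.35%) were called higher and 6 (2.7%) lower in 129, in nm1054 brains and again in WT brains, and these were the same 9 probes in both. The shares of all probes were 1.39% higher and 1.88% lower in nm1054 brains, and 1.67% and 1.66% in WT brains. The median difference over the 222 probes was 0.05 in nm1054 and 0.07 in WT brains, beside 0.12 and 0.15 over all probes. Between genotypes limma called 0 of the 222, beside 0.0199% of all probes on 129 and 0.0177% on B6. At an unadjusted p under 0.05 there were 4 on 129 and 17 on B6, beside 2.65% and 6.12% of all probes. Between strains that unadjusted threshold took in 22.2% of all probes in nm1054 and 26.7% in WT brains. Of the lists, 4 had no probe called by limma between strains. At an unadjusted p under 0.05, the Golgi membrane proteins related to Tmem87a had 2 of 11 probes in each genotype, complement had 7 of 32 in each, genes of the ELL and occludin domain had 0 of 7 in nm1054 and 1 of 7 in WT brains, and genes with a CUE domain had 0 of 20 in nm1054 and 4 of 20 in WT brains.

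Of the pathway of Masp2, the companion protease Masp1 gave 0.13 and 0.016 in nm1054 and -0.05 and 0.0055 in WT brains at its 2 probes, and C3, the central complement component, gave 0.02 in nm1054 and 0.13 in WT brains. Neither gene was called. Tmem87b, the closest relative of Tmem87a, gave -0.10 and 0.22 in nm1054 and -0.11 and 0.18 in WT brains, also not called.

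Beside Timmdc1, 2 of 31 probes of complex I assembly factors fell. They were Tmem126b, of the assembly complex for the membrane arm, at -0.94 in nm1054 and -0.79 in WT brains (SE 0.11, limma adjusted p = 8.86e-06 and 8.89e-05 in the same order, as in the next paragraphs), and 1 of 5 probes of Foxred1, at -0.73 in nm1054 and -0.80 in WT brains (SE 0.13, adjusted p = 8.45e-04 and 3.24e-04). Both differences ran opposite to that of the Timmdc1 lead probe.

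Beside Paip1, 2 of 38 probes of the poly(A)-binding and initiation list fell. Eif4e, which binds the messenger RNA cap, was at -1.69 in nm1054 and -1.60 in WT brains at ILMN_1260038 (SE 0.15, limma adjusted p = 7.94e-08 and 1.85e-07). Eif4e2, its relative that represses translation, was at -0.71 in nm1054 and -0.90 in WT brains at 1 of 3 probes (SE 0.11, adjusted p = 1.48e-04 and 7.29e-06). Paip2, an inhibitor of the poly(A)-binding protein, gave -0.20 in nm1054 and -0.14 in WT brains and was not called.

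Beside Trappc12, 1 of 33 probes of TRAPP subunits rose and 1 fell. Trappc6a was at 0.79 in each genotype (SE 0.12, limma adjusted p = 2.10e-04 in nm1054 and 2.14e-04 in WT brains), and Trappc5 was at -1.63 in nm1054 and -1.41 in WT brains at 1 of 2 probes (SE 0.13, adjusted p = 4.38e-08 and 3.72e-07). The other Trappc5 probe gave -0.09 in nm1054 and -0.10 in WT brains. Trappc5 thus shared with Trappc12 a large difference at a single probe.

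Beside Adat2, 2 of 50 probes of transfer RNA modification genes rose and 1 fell. Nsun2, a transfer RNA cytosine methyltransferase, was at 1.89 in nm1054 and 1.63 in WT brains (SE 0.12, limma adjusted p = 9.29e-10 and 8.57e-09). Cdkal1, which adds a methylthio group, was at 0.95 in nm1054 and 1.28 in WT brains at 1 of 4 probes (SE 0.11, adjusted p = 5.85e-06 and 9.92e-08), and Trmt1, a guanine methyltransferase, was at -1.64 in nm1054 and -1.07 in WT brains at 1 of 2 probes (SE 0.17, adjusted p = 1.42e-06 and 3.38e-04). Adat3, the partner subunit of Adat2, gave 0.35 in nm1054 and 0.26 in WT brains and was not called.

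The members lie apart in the genome, on chromosomes 2 (Tmem87a), 4 (Masp2), 8 (Ocel1), 10 (Adat2), 11 (Cuedc1), 12 (Trappc12), 13 (Paip1) and 16 (Timmdc1), and none is on the chromosome of the deletion. The 5 measured genes on each side of each member were taken as its neighbours, 80 genes with 169 probes. Of these probes 3 (1.78%) were called higher and 8 (4.73%) lower in 129 in nm1054 brains, beside 1.39% and 1.88% of all probes. In WT brains 5 (2.96%) were called higher and 9 (5.33%) lower, beside 1.67% and 1.66% of all probes. No neighbour of Timmdc1, Ocel1 or Adat2 was called by limma between strains, though at an unadjusted p under 0.05 there were 5 of 19, 7 of 17 and 1 of 18 probes in nm1054 and 5, 7 and 6 of them in WT brains, beside the same 22.2% and 26.7% of all probes.

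Near Tmem87a the fifth gene along, Lrrc57, had a larger difference than any member, in the other direction, at -4.03 in nm1054 and -3.85 in WT brains (SE 0.15, limma adjusted p = 1.67e-13 and 3.28e-13). On the other side Pla2g4e, a cytosolic phospholipase, was higher by 0.73 in nm1054 and 0.77 in WT brains at ILMN_2774917 (SE 0.13, adjusted p = 0.00129 and 7.63e-04), and by 0.54 and 0.70 at ILMN_2774916, called in WT brains only. Beside Trappc12, Myt1l, a neuronal zinc finger gene, was at -3.95 in nm1054 and -3.44 in WT brains at 1 of 5 probes (SE 0.17, adjusted p = 1.82e-12 and 1.18e-11), and its other probes were not called. Adi1, the adjacent gene and an enzyme of methionine salvage, was higher by 0.81 in nm1054 and 0.84 in WT brains at 1 of 2 probes (SE 0.12, adjusted p = 1.35e-04 and 9.69e-05).

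Near Masp2, Angptl7 was higher by 1.11 in nm1054 and 0.94 in WT brains at 1 of 2 probes (SE 0.18, limma adjusted p = 4.98e-04 and 0.00267), and Exosc10, of the RNA exosome, was at -0.59 in nm1054 and -0.996 in WT brains at 1 of 2 probes (SE 0.14, adjusted p = 0.0103 and 4.83e-05). Beside Paip1 the adjacent 4833420G17Rik was at -1.49 in nm1054 and -1.47 in WT brains at 1 of 2 probes, and 3110070M22Rik was at -0.73 in nm1054 and -1.01 in WT brains (SE 0.14 each). Beside Cuedc1, C030037D09Rik was at -1.08 in each genotype (SE 0.13), and Msi2, an RNA-binding gene of neural progenitors, was at -1.96 in nm1054 and -1.29 in WT brains at ILMN_1234842 (SE 0.18). Another Msi2 probe, ILMN_1214668, was at 0.43 in nm1054 brains and 0.99 in WT brains (SE 0.14), where it was called, so that 2 probes of this gene were called in opposite directions.

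**Figure D5:**
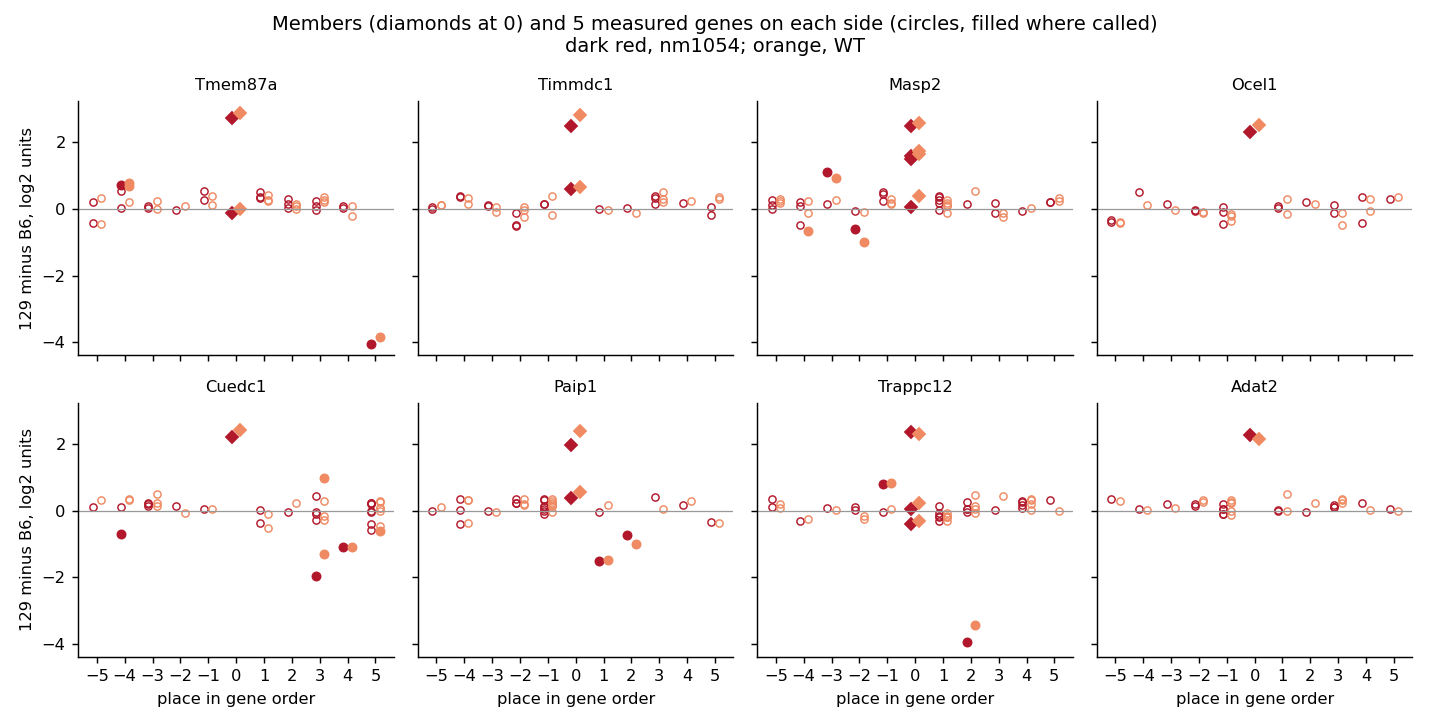
Difference of 129 minus B6 in log2 units for the probes of the 5 measured genes on each side of each member, in gene order, with the member's own probes in the centre. Lrrc57 beside Tmem87a (-4.03 in nm1054, -3.85 in WT) and Myt1l beside Trappc12 (-3.95 in nm1054, -3.44 in WT) are the lowest points.

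The lead probes resembled one another in profile. Likeness was measured as the root mean square gap over the 12 arrays, a description of probes all chosen for the same split of strains, and it was taken against some 33657 probes of other named genes in the case of Tmem87a. The nearest profile to Tmem87a was Timmdc1 (0.215 log2 units) and then Masp2 (0.278), and the nearest to Timmdc1 after Tmem87a was Trappc12 (0.242). Masp2 was nearest to Cuedc1 (0.160) and Ocel1 (0.164), and Adat2 was nearest to Cuedc1 (0.167) and Arhgap33os (0.171). Trappc12 was closest to a gene outside the group, Ttl, a tubulin tyrosine ligase (0.128), and Paip1 had only outside genes as its nearest, Cap1 (0.235) and Rbm45 (0.288).

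Tmem87a and Timmdc1, the members of largest excess, each with the other as its nearest profile, are shown with the 250 bases before their annotated starts, from the RefSeq sequence of GRCm38.p6, which is that of the B6 reference strain. Capitals mark CCGGAAG, a core of the ETS family of transcription factors, on either strand, where overlapping matches run together.
Tmem87a, chr2:120404117-120404366, minus strand: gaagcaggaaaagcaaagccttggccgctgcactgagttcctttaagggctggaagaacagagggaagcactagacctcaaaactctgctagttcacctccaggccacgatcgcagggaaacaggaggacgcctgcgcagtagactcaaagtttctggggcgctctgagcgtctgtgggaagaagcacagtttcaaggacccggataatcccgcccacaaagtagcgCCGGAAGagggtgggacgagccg
Timmdc1, chr16:38522664-38522913, minus strand: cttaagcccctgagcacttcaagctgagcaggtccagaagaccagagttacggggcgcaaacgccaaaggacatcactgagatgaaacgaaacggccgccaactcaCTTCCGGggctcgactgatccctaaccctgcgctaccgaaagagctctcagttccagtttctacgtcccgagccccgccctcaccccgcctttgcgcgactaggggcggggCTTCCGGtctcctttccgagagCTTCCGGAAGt
The window of Tmem87a held 1 match and that of Timmdc1 held 4. The other 6 members had none. Counted by window, 2 of the 10 windows of the 8 members held the motif, beside 6.91% of 32851 windows of the same length over the genome. The GC box GGGCGG was in 6 of the 10 windows (32.7% over the genome), CCAAT in 3 (33.8%) and TATAAA in 1 (12.4%), each counted on both strands. A match is a run of letters in the reference and no evidence of binding. The probe sequences and the 129 sequence of these genes were not used here.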

How the data were processed

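Single-colour Illumina MouseWG-6 arrays measured 12 whole P1 brains. Probe intensities came from GenomeStudio and were normalized by the authors in GeneSpring GX. The deposited values are log2 intensities from which the probe's median across all 12 arrays was subtracted. Software versions, the kind of normalization and the beadchip of each array are not given in the sources used here. The deposited values carry no signal level or detection call, so low probes were not filtered. Precision is limited by the number of arrays.

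The 8 genes, the pathway and marker lists and the tests were chosen with earlier results of these data known. The 12 probes carry a member's name in the probe annotation, and 4 more were found through an older symbol or a transcript identifier in the RefSeq tables of GRCm38.p6, which gave names, gene order and promoters. The lead probe of a gene is its named probe with the largest mean of the strain differences. Named genes are the members, list genes and neighbours with a called probe in both strain comparisons (up to 4 per list), the nearest 2 profiles, and genes inside or just outside the 10 of largest excess. Tmem87b, Masp1, C3, Paip2, Adat3 and Dbi are named for their relation to a member or to the deletion.

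All 12 arrays were fitted together with a mean per group in limma 3.58.1 (R 4.3.3, with the package data.table in version 1.17.8), with 8 residual and 10.8 prior degrees of freedom. Tests were two-sided with Benjamini-Hochberg adjustment over 45281 probes, and were tested first on simulated data. The p-values set a group difference against the spread between brains within groups, moderated by limma over all probes. The labels do not say whether brains of a group shared a litter. If they did, the spread between litters is left out of these p-values. No p is given for the members in the strain comparisons that chose them. Figures were drawn with matplotlib 3.10.9 and pandas 2.3.3 in Python 3.11.15. Alternatives were a replicate block, a separate fit for each pair of groups, the methods' t-test, centred arrays, quantile normalization, removal of the less variable probes, other fold thresholds, gene means and each array left out, and, added after seeing the data, the probes under older names.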

Additional observations from a re-analysis of the deposited data

How the results depend on the processing

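No call on a member probe in a genotype comparison or the interaction was gained under any alternative run, and no called strain difference changed sign. Among the uncalled, the Tmem87a probe ILMN_1223159 ran between -0.17 and 0.07 in WT brains, and in nm1054 brains Masp2 ILMN_3027989 ran between -0.04 and 0.15 and Trappc12 ILMN_1237446 between -0.07 and 0.08. The methods' t-test also called 0 of the 12 between genotypes on each background, where it called 4 of all probes on 129 and 1 on B6. At an unadjusted p under 0.05 that t-test had 3 of the 12 on 129 and 0 on B6. On B6 limma had 1 of 12 at this threshold in the main run, 4 under quantile normalization and 3 without WT B6 replicate 1. The share of all probes at this threshold was not counted under the alternatives, so nothing is read from these member counts. The member counts in the strain comparisons ran between 9 and 10 in nm1054 and between 9 and 11 in WT brains, and the probes under older names left them at 10 of 16. Averaging all probes of a gene lowered the lead difference of the 5 genes with several probes, to 1.31 in nm1054 and 1.44 in WT brains for Tmem87a and to 0.67 in nm1054 and 0.74 in WT brains for Trappc12. Quantile normalization raised the lead differences and gave Tmem87a 3.76 in nm1054 and 3.68 in WT brains and Adat2 3.10 in nm1054 and 2.69 in WT brains; the cause was not tested.

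Counts over the other sets depended on the test and the fold threshold. Of the 222 pathway probes, 9 were called in nm1054 brains (15 with no fold threshold, 4 at a fold over 2) and 9 in WT brains (5 by the methods' t-test, 18 with no fold threshold, 5 at a fold over 2). Of the 169 neighbour probes, 11 were called in nm1054 brains (6 by the methods' t-test, 23 with no fold threshold, 6 at a fold over 2) and 14 in WT brains (2, 23 and 6 under the same settings). Over all probes the methods' t-test called 714 in nm1054 brains, against 1479 by limma, and 543 in WT brains, against 1510. Leaving out 1 array gave 9 to 10 pathway and 10 to 12 neighbour calls in nm1054 brains, and 9 to 11 and 12 to 17 in WT brains. On B6, leaving out WT B6 replicate 1 raised the genotype calls over all probes to 93, against 8, none of them at a member.

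The replicate numbers are shared labels only, since arrays of one number correlated between -0.32 and 0.19 in their deviations from the group means, against -0.32 to 0.41 for arrays of different numbers. With a replicate block the member counts stayed at 10 in each strain comparison and 0 for genotype, and the neighbour count in nm1054 brains was 10. Signal over background is not in the values, so a weak probe cannot be told apart from an undetected one.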
